A study of Bos taurus with 6 samples.

Results

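The nuclear receptors PPARG, PPARA, PPARD and RXRA, the CCAAT/enhancer-binding proteins CEBPA, CEBPB and CEBPD, the coactivators PPARGC1A and PPARGC1B, and the early B cell factor EBF1 were followed in intramuscular fat (IMF) of castrated and intact cattle. These 10 genes were taken by symbol from a table of 25444 genes, and 8 of them were found there. CEBPB was not analysed here. The entry LOC514750 bears the NCBI gene number that RefSeq gives to PPARGC1B, so its counts are given separately from the 8. All animals were male Chinese Qinchuan cattle of 24 months, weaned at 3 months and fed alike, and their IMF was dissected from the sternomandibularis muscle. Steers had been surgically castrated at 6 months, and bulls were left intact. Each group is 1 mRNA library, for which equal amounts of RNA from 6 animals (3 in the sample labels) were mixed.

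Fat cells form from progenitors through a cascade of transcription factors. CEBPB and CEBPD act early, EBF1 acts in progenitors, and together they switch on PPARG and CEBPA, which then maintain each other and the genes of the mature fat cell. A PPAR receptor binds DNA as a pair with an RXR receptor and is activated by fatty acids and their derivatives. PPARG is the receptor of fat storage, while PPARA and PPARD are best known for driving fatty acid oxidation in liver, heart and muscle. The PGC-1 coactivators, PPARGC1A and PPARGC1B, are recruited by such receptors and raise mitochondrial gene expression.

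The counts summed to 12677375 in steers and 9868415 in bulls, and the libraries were scaled by median-of-ratios size factors of 1.04 and 0.959. With a single library per group no spread between replicates exists, so every difference below lies between 2 pools, and the 95% exact intervals cover counting error alone. A gene was called when an exact binomial test gave an adjusted p under 0.05 and the scaled counts differed more than 2-fold. By this rule 4.66% of the 17752 genes tested were called up and 8.5% down in steers, and the upregulated share of the calls was 35.4%. With total counts as the scaling, the midpoint of the log2 fold changes over all genes moved by -0.24 and that share fell to 21.1%. Transcripts of fat cells were plentiful in both pools, with 38413 counts over 9 adipocyte markers in steers and 40775 in bulls. These were 0.303% and 0.413% of the counts of each library. By scaled counts 6 of the 9 were lower in steers and 3 higher, with a median log2 fold change of -0.08. Transcripts of muscle fibres were plentiful too, with 34524 and 52692 counts over 12 markers, or 0.272% and 0.534%. The 11 fibroblast and preadipocyte markers, which include collagens, held far more. Their counts were 1185844 in steers and 568132 in bulls, or 9.35% and 5.76%. In such bulk tissue, fewer cells of a type and less RNA per cell cannot be told apart.

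None of the 8 genes was called between steers and bulls, in a comparison where 13.2% of all genes were called in either direction. The 3 PPAR receptors had higher scaled counts in steers, and RXRA, CEBPA, CEBPD, EBF1 and PPARGC1A had lower ones. The farthest from equal were CEBPA, at 0.563 times its level in bulls, and PPARA, at 1.59 times. The median log2 fold change of the 8 genes was -0.20, beside 0.01 for all genes tested. At a threshold of 1.5-fold, PPARA was called up and CEBPA down, where 9.68% of all genes were called up and 12.7% down, or 22.4% in all. The intervals lay above 0 for 3 genes, below 0 for 4 and on both sides of 0 for 1. With total counts they lay above 0 for 1 gene, below 0 for 5 and on both sides for 2.

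**Figure D1:**
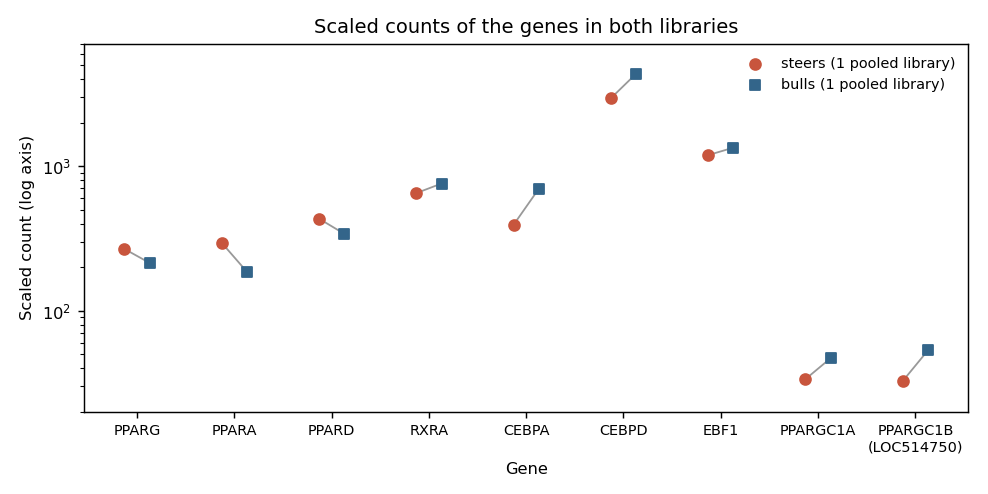
Scaled counts (log axis) of 9 genes in the steer library (circles) and the bull library (squares), with a line joining the libraries for each gene. The PPAR receptors sit higher in steers, the other genes sit higher in bulls, and CEBPA has the longest line towards bulls, at 697 in bulls and 392 in steers.

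Among the receptors, PPARG, the master regulator of fat cell formation, had 279 counts in the steer pool against 205 in the bull pool. This is a log2 fold change of 0.32 (interval 0.06 to 0.59), or of 0.08 (interval -0.18 to 0.35) when total counts were used. Of the 4 scalings tried, the interval lay above 0 under 3 and held 0 with total counts.

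PPARA, the receptor that turns on fatty acid oxidation in fasting, had 308 counts in the steer pool against 178 in the bull pool. The log2 fold change of 0.67 had an interval of 0.40 to 0.94, which stayed above 0 with total counts (0.43, interval 0.16 to 0.70). Of the 8594 genes with at least 100 scaled counts on average, 17.5% differed by at least as much in either direction. PPARD, the PPAR of most tissues, had 452 and 326 counts. The log2 fold change of PPARD was 0.35 (0.14 to 0.56), and with total counts its interval ran from -0.10 to 0.32. For PPARD 43.4% of those genes differed by at least as much, and for PPARG 46.5%, so neither stood out from the body of expressed genes.

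The make-up of the PPAR family in the 2 pools was compared as shares of reads. PPARG took 26.9% of the reads on the 3 PPAR genes in steers (exact interval 24.2 to 29.7) and 28.9% in bulls (25.6 to 32.4). PPARA took 29.6% (26.9 to 32.5) in steers and 25.1% (22.0 to 28.5) in bulls, and PPARD 43.5% and 46.0%. Intervals of steers and bulls overlapped for all 3. Such overlap does not show that the shares were equal, and their difference was not tested directly. These are shares of reads and are not corrected for the lengths of the transcripts.

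RXRA, a shared partner of the PPAR receptors, had 678 counts in the steer pool against 726 in the bull pool, which is a log2 fold change of -0.22 (interval -0.37 to -0.07). Its relative RXRB had 478 and 406 counts with a log2 fold change of 0.11 (-0.08 to 0.31). RXRG had 376 and 413 counts and was at -0.26 (-0.46 to -0.05). RXRA thus took 44.3% of the reads on the 3 RXR genes in steers and 47.0% in bulls, with overlapping intervals of 41.7 to 46.8 and 44.5 to 49.5. RXRB took 31.2% (28.9 to 33.6) in steers and 26.3% (24.1 to 28.5) in bulls, and these intervals did not overlap. For RXRG the shares were 24.5% and 26.7%, with overlapping intervals. For RXRA, 60.8% of the genes with at least 100 scaled counts differed by at least as much between the pools.

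**Figure D2:**
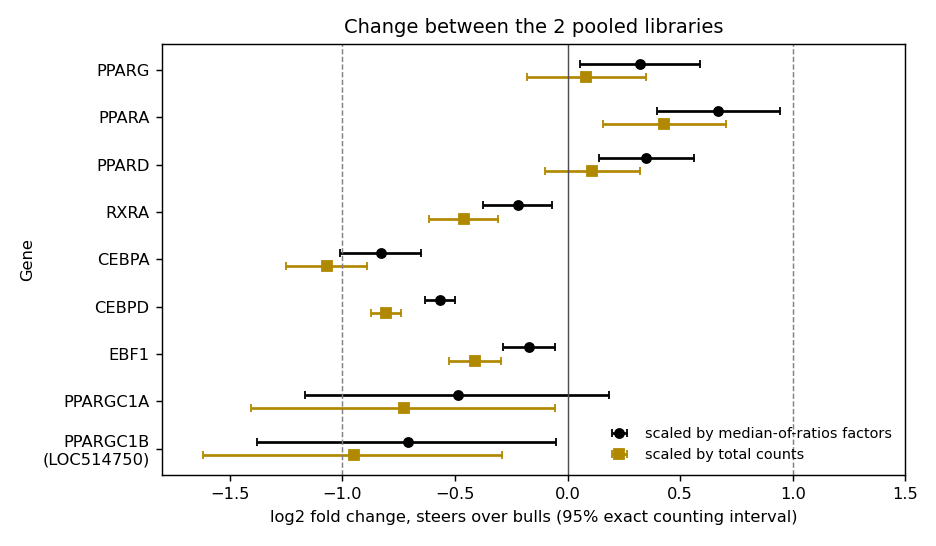
Log2 fold change of each gene, steers over bulls, with 95% exact counting intervals, after scaling by median-of-ratios factors (circles) or by total counts (squares). The dashed lines mark a 2-fold difference. Only the point of CEBPA lies beyond a dashed line, at -1.07 with total counts, and PPARG and PPARD lose their distance from 0 under that scaling. The intervals of CEBPA, PPARGC1A and LOC514750 cross the lower dashed line under both scalings.

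CEBPA, which sustains PPARG and insulin sensitivity in the mature fat cell, had 409 counts in the steer pool against 668 in the bull pool. On the log2 scale the difference for CEBPA was -0.83 (interval -1.01 to -0.65). Among the genes with at least 100 scaled counts, 12.1% differed by as much or more. With total counts the value was -1.07, and CEBPA was then called down, the only one of the 8 called under any scaling tried. CEBPD, an early factor of the cascade that is also induced in inflammation, was the most counted of the 8, with 3075 counts in the steer pool against 4181 in the bull pool. CEBPD was at -0.57 on the log2 scale (-0.63 to -0.50), and 23.2% of the expressed genes differed by at least as much.

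C/EBP factors are also active in myeloid cells, and the myeloid markers moved in the same direction. All 11 of these markers had lower scaled counts in steers and 9 were called down. Their counts summed to 20842 in the steer pool against 44104 in the bull pool, and their median log2 fold change was -1.70. CSF1R, the receptor of the macrophage growth factor, had the most counts in bulls, at 12309, against 7057 in the steer pool, and was at -0.92 on the log2 scale. CD14, a receptor for bacterial lipopolysaccharide, fell by 2.34 on the log2 scale. No marker of this list was at 0 in either library. The 12 T lymphocyte markers were all called down, with 159 counts in the steer pool against 1228 in the bull pool, and CD3G was at 0 in steers. The part of these cells in the CEBPA and CEBPD values was not tested.

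EBF1, which holds mesenchymal cells open to the fat lineage, had 1243 counts in the steer pool against 1286 in the bull pool. EBF1 was at -0.17 (-0.28 to -0.06) on the log2 scale, and 68.9% of the expressed genes differed by at least as much, the highest share among the 8. EBF2, a factor of brown and beige fat precursors, had 272 and 201 counts with a log2 fold change of 0.31 (0.05 to 0.58). EBF3, listed under its gene number as LOC525353, had 531 and 497 counts and was at -0.03 (-0.21 to 0.15). Of 11 fibroblast and preadipocyte markers, 8 had higher scaled counts in steers, or 6 with total counts, when the median went from 0.35 to 0.11. The 3 lower ones, named after their values were seen, were PDGFRA, CD34 and DPP4. PDGFRA was at -0.48 (-0.57 to -0.40), CD34 at -0.19 (-0.26 to -0.12), and DPP4, with 21 and 27 counts, at -0.48 (-1.38 to 0.39). The fibrillar collagens COL1A1 and COL3A1 were called up, and COL1A1, at a log2 fold change of 1.00, was not called with total counts, with edgeR's TMM factors, or in an edgeR exact test that assumed a biological coefficient of variation (BCV) of 0.2 between pools. The part of those cells in the EBF values was not tested.

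PPARGC1A, the coactivator of mitochondrial biogenesis, was scarce, with 35 counts in the steer pool against 45 in the bull pool. The log2 fold change of -0.48 had an interval of -1.17 to 0.18, so at this depth neither no difference nor a 2-fold fall could be told from it. LOC514750, matched to PPARGC1B, had 34 and 51 counts with a log2 fold change of -0.71 (-1.38 to -0.05). It was not called. PPRC1, the third gene of the PGC-1 family, was counted more often, with 1059 counts in the steer pool against 546 in the bull pool. Its log2 fold change of 0.83 (0.68 to 0.99) lay below the threshold and opposite in sign to those of its relatives. PPARGC1A is most abundant in slow, oxidative muscle fibres, and the slow-fibre myosin MYH7 was called down, at a log2 fold change of -2.23 from 675 and 2906 counts. Over the whole muscle list 9 of 12 markers were lower in steers, 3 of them called. MYH1 was called up, though not with total counts or with an assumed BCV of 0.2. The part of muscle fibres in the PPARGC1A value was not tested.

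The ratio of a pair of genes within a library does not depend on how the libraries are scaled, so 7 pairs were also compared as ratios. CEBPA to PPARG was 1.47 in steers and 3.26 in bulls, and the ratio of these ratios was 0.450 (exact interval 0.359 to 0.563). PPARG and CEBPA thus differed between the pools in unequal measure, beyond counting error and whatever the scaling. RXRA to PPARG was 3.54 in bulls and 2.43 in steers, a ratio of 0.686 (0.554 to 0.850). EBF1 to PPARG was 6.27 in bulls and 4.46 in steers, a ratio of 0.710 (0.580 to 0.868). CEBPD to CEBPA was 6.26 in bulls and 7.52 in steers, a ratio of 1.20 (1.05 to 1.37), so CEBPA was lower relative to CEBPD in steers. For PPARD to PPARG the ratio was 1.02 (0.804 to 1.29), and for PPARA to PPARG 1.27 (0.974 to 1.66). Neither interval excluded 1, and they leave room for differences of the sizes they span. For the entry of PPARGC1B to PPARGC1A the ratio was 0.858, with a wide interval of 0.441 to 1.67.

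**Figure D3:**
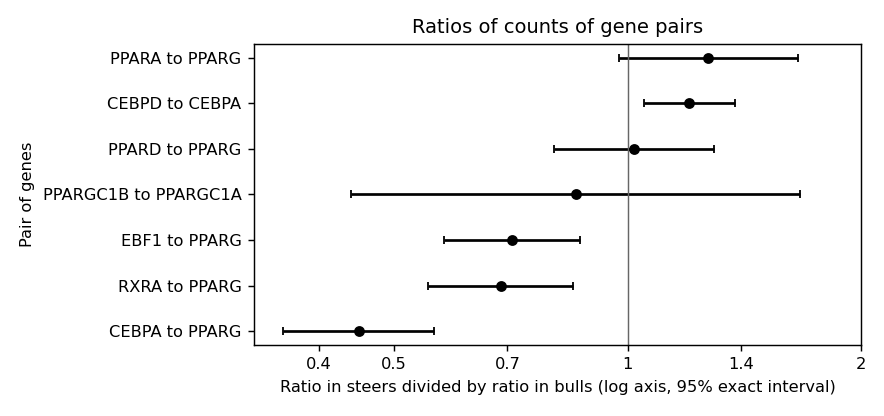
Ratio of the counts of gene pairs in steers divided by the same ratio in bulls (log axis), with 95% exact intervals. CEBPA, RXRA and EBF1 lie below 1 against PPARG, CEBPD lies above 1 against CEBPA, and the intervals of the other 3 pairs cross 1.

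Other transcription factors of the same kinds were mostly not called between the pools. This holds for most genes, since 13.2% of all genes tested were called. Of 23 other nuclear receptors tested, 0 were called up and 1 down, or 4.35%, and the median log2 fold change was -0.16. By sign 18 lay below 0 and 5 above. PGR, with 3 counts in steers and 0 in bulls, fell below only through the floor of 3 counts. The one called was VDR, the vitamin D receptor, with 16 counts in the steer pool against 31 in the bull pool. NR1D1, a clock receptor and repressor, had 1165 and 1534 counts with a log2 fold change of -0.52, and NR1H2, an oxysterol receptor, had 1199 and 1014 and 0.12. ESRRA, a receptor that works with PGC-1, had 235 and 250 counts and was at -0.21 (-0.47 to 0.05). RARG, with 744 and 1107 counts, was at -0.70, and NR3C2, with 57 and 99, at -0.92, both named after their values were seen. Of 8 other bZIP factors none was called, with 2 above 0 and 6 below. DBP, named after its values were seen, had 246 and 426 counts and was at -0.91 (-1.15 to -0.68), beside -0.83 for CEBPA. CEBPG, a C/EBP protein without an activation domain, had 180 and 161 counts with a log2 fold change of 0.04, and CEBPE, a granulocyte factor, had 3 and 7 counts. Of 17 other regulators of fat cell formation 2 were called, both down, or 11.8%, near the share of all genes. They were GATA2, which holds preadipocytes back from differentiation, with 27 and 55 counts, and its relative GATA3, with 4 and 16, named here after its values were seen. The calls of VDR, GATA2 and GATA3 were lost in the edgeR exact test with an assumed BCV of 0.2. SREBF1, the regulator of lipid synthesis genes, had 1999 and 1548 counts with a log2 fold change of 0.25 (0.15 to 0.34).

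Among 15 coregulators of nuclear receptors, 1 was called up and 1 down, or 13.3%, near the 13.2% of all genes. Their median log2 fold change was -0.14. LPIN1, which makes diacylglycerol and also binds PPARA and PGC-1 in the nucleus, rose by 1.36 on the log2 scale (1.27 to 1.44), with 4683 counts in the steer pool against 1682 in the bull pool. PRDM16, the coregulator of brown and beige fat, fell by 1.88 (interval -2.90 to -0.96), with 13 and 44 counts. NCOR1, a corepressor that silences PPARG, had 1401 and 1564 counts with a log2 fold change of -0.28. NRIP1, a repressor of oxidative genes in fat, had 195 and 272 counts and was at -0.60 (-0.88 to -0.33).

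Several known target genes of PPARG in fat cells were called, in both directions. Of 18 targets tested, 4 were called up and 3 down, or 38.9%, beside 13.2% of all genes, many of which had far fewer counts. The median log2 fold change of the targets was -0.05. CIDEA, a lipid droplet protein, had 998 counts in the steer pool against 136 in the bull pool, which is a log2 fold change of 2.75 (2.49 to 3.02). PCK1, which supplies the glycerol backbone of triglycerides, had 2337 and 402 counts and rose by 2.42 (2.26 to 2.57). ANGPTL4, an inhibitor of lipoprotein lipase, had 120 and 773 counts and fell by 2.81 (interval -3.10 to -2.53). FABP4, the fatty acid binding protein of fat cells, was called down at -1.06, with 3951 and 7574 counts. CIDEC and ADIPOQ, with the most counts besides FABP4, were not called, at 0.28 and -0.68. Lists of such targets overlap with the adipocyte markers, and the members were chosen with these libraries already described.

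For the oxidation genes that PPARA and PPARD are known to control, 0 of 16 tested were called up and 2 down, or 12.5%, near the 13.2% of all genes, and the median was -0.05. PDK4, the kinase that shuts off pyruvate oxidation, had 2495 counts in the steer pool against 6424 in the bull pool and fell by 1.49 (interval -1.55 to -1.42). CPT1A, the gate of fatty acid entry into mitochondria, had 930 and 2279 counts and fell by 1.42 (interval -1.53 to -1.30). Skeletal muscle also makes much PDK4, its markers were mostly lower in steers as given above, and their part was not tested. HADHA and ACADVL, the other highly counted enzymes of the list, were not called, at 0.02 and -0.48.

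Of 16 mitochondrial genes controlled by PGC-1, none was called in either direction, beside 13.2% of all genes. By sign 11 were above 0, with a median of 0.18 that became -0.06 with total counts. ATP5B, a subunit of the ATP synthase, had the most counts, 6620 and 4445, at a log2 fold change of 0.45. Among the targets of CEBPA, LEP was at 0.02, with 1272 and 1153 counts, and INSR at -0.03, with 448 and 421. SLC2A4, the insulin-responsive glucose transporter, was named after its values were seen. It had 291 and 172 counts and was at 0.64 (0.36 to 0.92), opposite in sign to CEBPA, and was not called. FABP4, which both PPARG and CEBPA control, was the 1 of the 4 tested that was called, and this call was lost with an assumed BCV of 0.2. In a list of acute phase and inflammatory genes with C/EBP sites, 1 of 10 was called up and 2 down. This is 30%, beside 13.2% of all genes, and no set test was run. HP, haptoglobin, had 124 counts in the steer pool against 944 in the bull pool and fell by 3.05 (interval -3.33 to -2.78). PTGS2, the other gene called down, had 22 and 46 counts and was at -1.19 (-1.99 to -0.42). The call of PTGS2 was lost with an assumed BCV of 0.2. PTX3, a pentraxin of innate defence, had 2922 and 718 counts and rose by 1.90 (1.78 to 2.02). SAA3, an acute phase protein of fat tissue, was at 0.69, with 3918 and 2226 counts, so this list held members far apart in both directions.

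**Figure D4:**
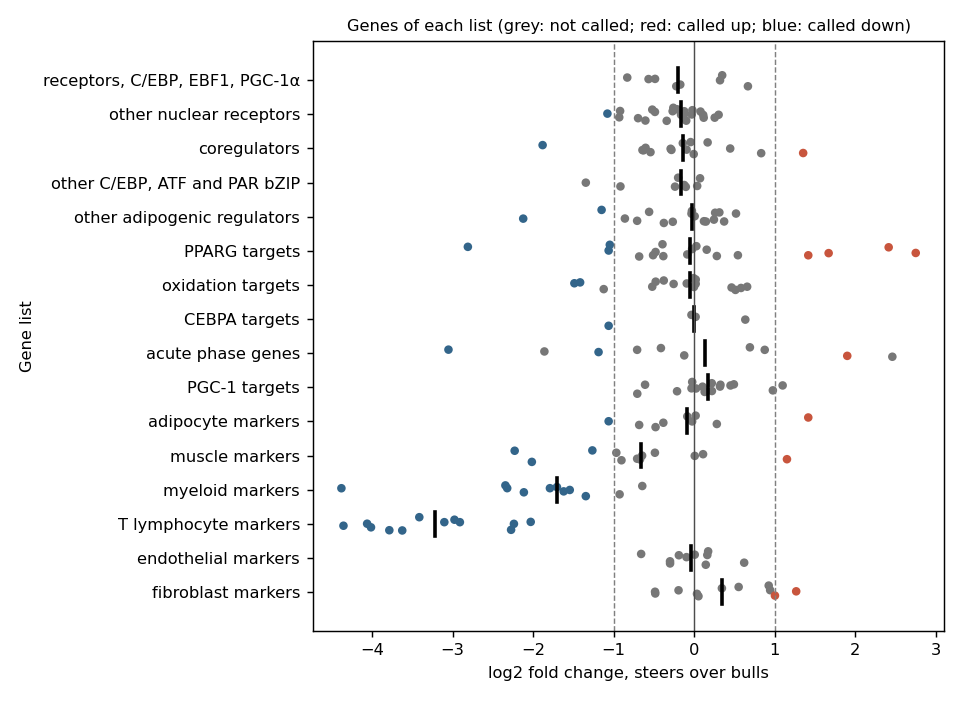
Log2 fold change, steers over bulls, of each gene (points) in the lists named on the vertical axis, with the list median as a black bar and dashed lines at a 2-fold difference. For a gene at 0 counts in 1 library, that library alone is set to the floor of 3 counts. A gene with few counts in the other library can then lie on the opposite side of 0. ORM1, with 2 counts in steers and 0 in bulls, is drawn at -0.71. The genes of the top line lie within 1 of 0, the PPARG targets spread from -2.81 to 2.75, and the myeloid and T lymphocyte markers lie to the left, with medians of -1.70 and -3.22.

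Endothelial markers, for comparison, had a median of -0.04 with none of 10 called. With only 2 libraries a gene has 1 fold change, so no gene was ranked for a pattern like that of the receptors.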

How the data were processed

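The authors removed adaptors and low-quality reads from Ion Proton sequences and aligned the rest to the bovine genome (Bos 4.6.1) with MapSplice v2.1.8. The submitters' processing notes also name BWA and GRCh37.p13, without a role. The deposited mRNA values are raw counts per gene, with no normalization and no row without a gene name. How reads were assigned to genes, and whether by strand, is not given in the sources used here.

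Here, counts were scaled by median-of-ratios size factors (numpy 2.4.6). A two-sided exact binomial test (scipy 1.17.1) was run per gene, and p-values were adjusted by Benjamini-Hochberg across the 17752 genes counted in either library. Calls needed an adjusted p under 0.05 and more than 2-fold, where a library at 0 was set to a floor of 3 counts. The test compares 2 libraries, not the conditions. Intervals are Clopper-Pearson, or conditional exact for ratios of pairs, at 95%. List medians used a prior of 0.5 counts. The test was tried on simulated counts with Poisson error alone. That is the error the test assumes, so the trial says nothing about spread between pools. Alternatives used edgeR 4.0.16 in R 4.3.3.

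Symbols were matched to RefSeq (ARS-UCD2.0), used for names only. The rule named the 10 genes, their close relatives, and from each list the 3 most counted genes and the 3 largest calls beyond those. The members and lists were chosen with earlier results of these data known. The miRNA counts were not used here. Of 9 pairs planned, 2 involved CEBPB. One further entry of the table is not reported here.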

Additional observations from a re-analysis of the deposited data

How the results depend on the processing

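The 8 genes kept their signs under every scaling tried. The count filter, the fold threshold and the edgeR test do not enter a fold change, so they could not alter a sign. Scaling by total counts gave 1 call down (CEBPA, -1.07) and 0 up, and a 1.5-fold threshold gave 1 up (PPARA) and 1 down (CEBPA), instead of 0 and 0. The other settings, TMM factors, upper quartile, a minimum of 10 counts and the edgeR exact test with an assumed biological coefficient of variation (BCV) of 0.2 or 0.4 between pools, called none of the 8, and with either BCV none had an unadjusted p under 0.05. Log2 fold changes ranged over the scalings from 0.43 to 0.68 for PPARA, 0.08 to 0.34 for PPARG and 0.11 to 0.36 for PPARD. They ranged from -1.07 to -0.81 for CEBPA and -0.80 to -0.55 for CEBPD. PPARGC1A had an interval below 0 with total counts alone. With Wald intervals for the 7 pair ratios, the same pairs excluded 1 and the same pairs held it. Over all genes, calls went from 827 up and 1509 down to 368 and 762 with a BCV of 0.2, to 52 and 93 with a BCV of 0.4, and to 1719 and 2250 at 1.5-fold. With a BCV of 0.4, calls in the lists were left among myeloid (1) and T lymphocyte markers (4) alone. With 0.2, the PPARG targets called down went from 3 to 1, with FABP4 and SLC27A1 lost. VDR, GATA2, GATA3, PTGS2, COL1A1, the muscle marker MYH1 and the T lymphocyte marker CD6 were no longer called either. The median of the acute phase list was 0.14, and -0.79 with a minimum of 10 counts, since low genes left it. No paired analysis was possible because the mRNA comparison has 1 library per group. Leaving out a replicate was not possible for the same reason.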
